A study of Mus musculus with 12 samples.

Results

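Symbols were searched for in the table of read counts from mouse hearts, as 3 groups of macrophage genes. Resident macrophages were represented by Lyve1, Timd4, Cd163, Mrc1 and Folr2, recruited monocytes and their progeny by Ccr2 and Ly6c2, and both kinds by Csf1r, Adgre1 and Cx3cr1. Of the 10 symbols searched, 9 had a row among the 43686 rows, and all 9 passed the filter on low counts. Timd4 passed it through its WT libraries. Ly6c2 had no row under that name and was not analysed here, so Ccr2 stood alone for the recruited cells. The paralog Ly6c1 had none either, and an unnamed row with a Ly-6 domain on chromosome 15 was not read as Ly6c2.

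RNA was taken from the ventricular wall of 6 WT and 6 KO mice, whose strain is C57BL/6 by the labels and, more closely, C57BL/6J by the methods. The labels give the age as 2 months, and other sources on the study differ in the age. Both groups carry floxed alleles of Sdhaf4, the gene for an assembly factor of succinate dehydrogenase (mitochondrial complex II). WT are Sdhaf4 fl/fl littermates without Cre, and KO are Sdhaf4 fl/fl mice with Ckmm-Cre, which is driven by the muscle creatine kinase promoter and recombines in cardiac and skeletal muscle. The labels name the mutants as Sdhaf4-/- and do not mention the Cre. The promoter belongs to muscle, and the sources used here give no measure of recombination in macrophages. Sdhaf4 itself stood at 14.3 to 30.3 CPM (read counts relative to library size, scaled by the trimmed mean of M values, TMM) in WT and 2.25 to 2.73 CPM in KO, so that all 12 libraries matched their labels. Libraries held 23747014 to 27159228 counts in WT and 26542930 to 31393393 in KO, and the cardiomyocyte gene Myh6 stood at 14630 to 18340 CPM in WT and 12500 to 18630 in KO.

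The heart holds macrophages that were seeded before birth and renew themselves in place, beside macrophages that are replaced by blood monocytes. The long-lived cells carry the hyaluronan receptor Lyve1, the phosphatidylserine receptor Timd4 and the folate receptor Folr2, whereas monocytes follow the chemokine Ccl2 through its receptor Ccr2. Csf1r, the receptor for the growth factors Csf1 and Il34, is needed for the survival of both. Macrophage genes are switched on by the factor PU.1 (Spi1) together with partners of the MAF, AP-1 and C/EBP families.

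To show the regulatory sequence that the members carry at their start sites, windows of 300 bases, from 250 before to 50 after the start, were read from RefSeq on GRCm38.p6. A window was found for 7 of the 10 symbols. Those of a resident gene that was higher in KO (Mrc1), of 2 resident genes that were lower (Folr2 and Timd4) and of the recruited gene (Ccr2) are printed 5′ to 3′ on the strand of the gene. Capitals mark matches, on either strand, to AGGAAGT (PU.1), TGACTCA (AP-1), TGCTGAC (MAF) or TTGCNNAA (C/EBP).
Mrc1, chr2:14229164-14229463, plus strand: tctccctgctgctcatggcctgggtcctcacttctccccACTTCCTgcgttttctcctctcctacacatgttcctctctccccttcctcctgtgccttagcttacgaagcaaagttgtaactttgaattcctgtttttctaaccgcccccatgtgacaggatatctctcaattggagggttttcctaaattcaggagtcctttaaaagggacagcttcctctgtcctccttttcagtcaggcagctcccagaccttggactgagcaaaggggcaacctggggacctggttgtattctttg
Folr2, chr7:101857141-101857440, minus strand: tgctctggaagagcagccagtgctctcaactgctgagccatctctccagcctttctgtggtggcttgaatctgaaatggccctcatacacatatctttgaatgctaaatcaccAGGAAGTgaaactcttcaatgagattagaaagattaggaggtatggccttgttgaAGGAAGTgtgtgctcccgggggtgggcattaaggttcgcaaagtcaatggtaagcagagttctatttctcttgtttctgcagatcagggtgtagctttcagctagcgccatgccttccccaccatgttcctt
Timd4, chr11:46810549-46810848, plus strand: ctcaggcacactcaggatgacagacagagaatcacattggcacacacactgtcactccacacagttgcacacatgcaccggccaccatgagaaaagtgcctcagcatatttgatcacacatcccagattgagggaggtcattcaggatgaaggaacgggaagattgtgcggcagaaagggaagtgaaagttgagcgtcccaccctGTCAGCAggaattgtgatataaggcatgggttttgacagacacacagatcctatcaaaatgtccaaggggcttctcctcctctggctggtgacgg
Ccr2, chr9:124101933-124102232, plus strand: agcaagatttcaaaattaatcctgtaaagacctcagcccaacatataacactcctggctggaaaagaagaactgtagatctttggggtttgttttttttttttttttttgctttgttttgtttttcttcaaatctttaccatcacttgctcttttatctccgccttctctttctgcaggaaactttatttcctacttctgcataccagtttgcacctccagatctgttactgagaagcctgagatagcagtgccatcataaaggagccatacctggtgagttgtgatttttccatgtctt
The Mrc1 window held 1 PU.1 match, read on the opposite strand, the printed Folr2 window held 2, and the Timd4 window held 1 MAF match, also on the opposite strand. A second Folr2 window, at chr7:101845282-101845581 on the minus strand and not printed, held 1 AP-1 match and no PU.1 match. None of the 4 motifs was matched in the Ccr2 window. The windows of Cd163 and Cx3cr1, also not printed, held none either. Those of Ly6c2, the other recruited symbol, overlap, and each held 2 PU.1 matches. The matches thus did not divide by role. Over all 32851 mouse windows of this kind, 9.35% held the PU.1 letters, 5.2% the AP-1 letters, 4.67% the MAF letters and 10.8% the C/EBP letters. A match is only a run of letters, and no binding was measured.

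The comparison of KO with WT split the resident genes. Lyve1 and Mrc1 rose, Folr2 and Timd4 fell, and Cd163 did not pass the test. Ccr2 rose. Of the shared genes, Adgre1 and Csf1r fell, and Cx3cr1 did not pass the test. In all, 7 of the 9 members (77.8%) were called by edgeR's quasi-likelihood test (adjusted p below 0.05), 3 of them higher and 4 lower in KO, against 51.1% of the 17155 rows tested. Among all rows, 25.6% were higher and 25.5% lower. The median log2 fold change of the members was -0.13, beside 0.0022 over all rows. With the stricter threshold of an adjusted p under 0.005 and a log2 fold change beyond 1 in size, 2 members remained, Folr2 and Timd4, against 10.2% of all rows. For 4 members no WT heart reached the KO range, against 30.1% of all rows. In whole tissue, a change in the number of cells of a type and a change in the RNA per cell cannot be told apart.

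Lyve1 (MGP_C57BL6NJ_G0033355, chromosome 7, 119087022 to 119099639, minus strand, in coordinates of the C57BL/6NJ assembly that the identifiers name) encodes a hyaluronan receptor of resident macrophages and lymphatic vessels. Its level was 13.6 CPM at the lowest, 16.2 at the median and 20.5 at the highest in WT, and 24.7, 30.8 and 34.3 CPM in KO. Every KO heart lay above every WT heart. The mean went from 16.6 ± 2.68 to 30.4 ± 3.80 CPM (SD, n = 6 per group), a 1.83-fold rise (log2 fold change 0.87, SE 0.11, adjusted p = 3.61e-06, edgeR's quasi-likelihood test). Genes of lymphatic endothelium moved with it. Flt4, the receptor for the lymphatic growth factor, rose from 20.1 ± 1.99 to 47.4 ± 7.80 CPM, Reln from 7.58 ± 3.11 to 36.5 ± 9.28, Pdpn from 3.38 ± 0.721 to 6.30 ± 0.919 and Mmrn1 from 10.9 ± 5.75 to 33.1 ± 10.1. Prox1, the lymphatic transcription factor, which cardiomyocytes also express, fell from 95.8 ± 8.71 to 69.3 ± 8.07 CPM. Thus 4 of 5 lymphatic genes rose and 1 fell, where 25.6% of all rows were higher and 25.5% lower. Their summed level was 120.5 to 165.0 CPM in WT and 152.7 to 247.2 in KO. Prox1 is the largest part of this sum, so the sum understates the rise of the other genes. Their part in the change of Lyve1 was not tested.

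Mrc1 (MGP_C57BL6NJ_G0025777, chromosome 2, 12060782 to 12152451, plus strand) encodes the mannose receptor CD206, which clears glycoproteins and is also found on some endothelial cells. It stood at 37.4, 44.7 and 49.6 CPM (lowest, median and highest) in WT and at 50.4, 58.2 and 71.0 CPM in KO. The groups did not overlap, although the gap between them was narrow. The mean rose 1.35-fold, from 43.6 ± 4.40 to 58.8 ± 7.34 CPM (log2 fold change 0.43, SE 0.08, adjusted p = 0.000344, edgeR's quasi-likelihood test).

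Folr2 (MGP_C57BL6NJ_G0033073, chromosome 7, 108798059 to 108804668, minus strand) encodes a folate receptor carried by tissue-resident macrophages. The WT hearts held 8.18, 9.20 and 15.2 CPM at the lowest, the median and the highest, and the KO hearts 2.29, 3.75 and 5.22 CPM. All KO hearts lay below all WT hearts. The mean was 10.4 ± 2.71 CPM in WT and 3.87 ± 1.18 in KO, 2.69-fold lower (log2 fold change -1.43, SE 0.20, adjusted p = 2.74e-05, edgeR's quasi-likelihood test).

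Timd4 (MGP_C57BL6NJ_G0018596, chromosome 11, 47123007 to 47161020, plus strand), whose product TIM-4 binds phosphatidylserine on dying cells, was the faintest member. It had 17 to 44 counts in the WT libraries and 0 to 15 in the KO libraries, that is 0.669, 0.989 and 1.75 CPM (lowest, median and highest) in WT and 0, 0.217 and 0.516 CPM in KO. The groups did not overlap, and in KO replicates 2, 3 and 6 the counts were at or under 3, near what a count of 0 allows. The WT libraries carried Timd4 through the filter on low counts. Its call and the gap between its groups, here and below, are therefore not free of that selection. The mean was 1.06 ± 0.410 CPM in WT and 0.246 ± 0.214 in KO (log2 fold change -2.08, SE 0.52, adjusted p = 0.00294, edgeR's quasi-likelihood test).

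Cd163 (MGP_C57BL6NJ_G0031687, chromosome 6, 130865476 to 130893669, plus strand), the receptor that takes up haemoglobin bound to haptoglobin, was the resident member that did not pass the test. It ranged from 45.0 to 75.0 CPM in WT (median 53.5) and from 42.1 to 64.2 CPM in KO (median 51.7). The groups overlapped over most of their range. The log2 fold change was -0.13 with an SE of 0.14 (adjusted p = 0.477, edgeR's quasi-likelihood test), and the means were 57.1 ± 12.7 and 52.4 ± 7.33 CPM.

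Ccr2 (MGP_C57BL6NJ_G0035989, chromosome 9, 130675861 to 130687444, plus strand) encodes the receptor that brings monocytes out of the bone marrow and into inflamed tissue. The WT hearts held 2.75, 3.70 and 5.98 CPM at the lowest, the median and the highest, and the KO hearts 5.66, 7.11 and 11.1 CPM. WT replicate 3 lay within the KO range, and 4 of the KO hearts stood above every WT heart. The mean rose 1.92-fold, from 3.92 ± 1.33 to 7.54 ± 2.09 CPM (log2 fold change 0.94, SE 0.22, adjusted p = 0.00193, edgeR's quasi-likelihood test).

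Among the shared genes, Adgre1 (MGP_C57BL6NJ_G0024368, chromosome 17, 61442445 to 61567913, plus strand), which encodes the surface antigen long used to define mouse macrophages, fell. It stood at 16.4, 21.2 and 24.8 CPM (lowest, median and highest) in WT and at 8.65, 13.4 and 19.6 CPM in KO. WT replicate 5 and KO replicate 4 made the groups overlap, and 5 KO hearts lay below every WT heart. The mean was 20.9 ± 2.73 CPM in WT and 13.5 ± 3.85 in KO, 1.54-fold lower (log2 fold change -0.62, SE 0.16, adjusted p = 0.00518, edgeR's quasi-likelihood test).

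Csf1r (MGP_C57BL6NJ_G0024888, chromosome 18, 62617314 to 62645157, plus strand) stood at 53.7, 63.1 and 69.2 CPM (lowest, median and highest) in WT and at 42.5, 51.7 and 66.1 CPM in KO. The groups overlapped, and 3 KO hearts lay below every WT heart. The log2 fold change was -0.26 (SE 0.09, adjusted p = 0.0296, edgeR's quasi-likelihood test). This call was lost without WT replicate 3, 4 or 6 and without KO replicate 2, 3 or 6, with an adjusted p of up to 0.067. The span of the row also overlaps Hmgxb3 on the other strand, which had up to 857 counts, and whether HTSeq counted by strand is not given in the sources used here.

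Cx3cr1 (MGP_C57BL6NJ_G0035929, chromosome 9, 126232232 to 126249320, minus strand), the receptor for the membrane-bound chemokine fractalkine, ranged from 3.44 to 8.78 CPM in WT (median 5.75) and from 4.94 to 8.74 CPM in KO (median 7.62). The KO range lay inside the WT range, and the log2 fold change of 0.25 (SE 0.20) did not pass the test (adjusted p = 0.309, edgeR's quasi-likelihood test).

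**Figure D1:**
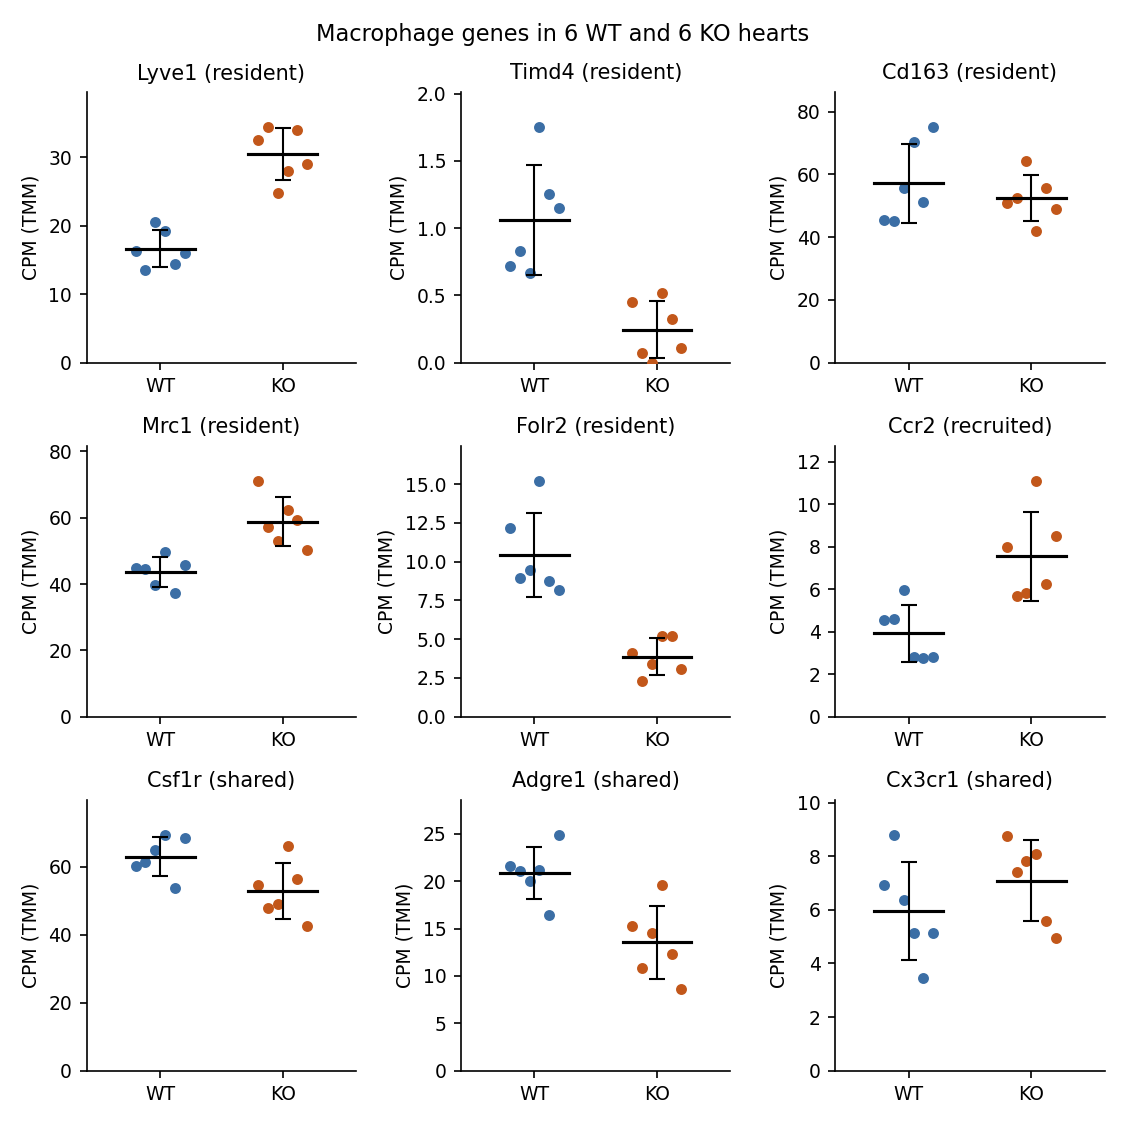
Level of the 9 macrophage genes in TMM-scaled CPM, on linear axes from 0; each point is 1 heart, the bar is the mean and the whiskers are 1 SD (n = 6 WT and 6 KO). The 6 KO hearts lie above all WT hearts for Lyve1 and Mrc1 and below all of them for Folr2 and Timd4, while the other 5 genes overlap.

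To compare levels between genes, the deposited FPKM (fragments per kilobase of gene, scaled to library size) were used, since CPM does not account for length. In WT the order of mean FPKM was Cd163 (16.1 ± 3.72), Csf1r (14.7 ± 1.48), Mrc1 (11.7 ± 1.28), Folr2 (9.65 ± 2.42), Adgre1 (6.55 ± 0.966), Lyve1 (6.37 ± 0.976), Cx3cr1 (1.70 ± 0.540), Ccr2 (1.11 ± 0.374) and Timd4 (0.487 ± 0.185). The only neighbours in that order whose WT ranges did not overlap were Lyve1 and Cx3cr1. In KO the order of mean FPKM was Mrc1 (15.8 ± 2.30), Cd163 (14.7 ± 1.80), Csf1r (12.4 ± 2.20), Lyve1 (11.7 ± 1.63), Adgre1 (4.27 ± 1.28), Folr2 (3.60 ± 1.16), Ccr2 (2.14 ± 0.628), Cx3cr1 (2.03 ± 0.448) and Timd4 (0.115 ± 0.101). Here the ranges of neighbours were separate between Lyve1 and Adgre1 and between Cx3cr1 and Timd4. For Cd163, Mrc1, Ccr2, Csf1r and Adgre1 the authors divided by a shorter length than the one listed, so levels between genes are approximate.

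Ratios between members of 1 heart do not depend on how the libraries were scaled, and they are given as values without a test. The FPKM ratio of Lyve1 to Folr2, both resident genes, was 0.522, 0.655 and 0.893 (lowest, median and highest) in WT and 2.23, 3.15 and 6.22 in KO. In every WT heart Folr2 stood above Lyve1, and in every KO heart the order was turned. The ratio of Mrc1 to Folr2 ranged from 0.947 to 1.62 in WT and from 3.30 to 7.24 in KO, again without overlap. In contrast, the ratio of Lyve1 to Mrc1 overlapped, at 0.434 to 0.736 in WT and 0.641 to 0.859 in KO, as did that of Timd4 to Folr2, at 0.0294 to 0.0713 in WT and 0 to 0.0547 in KO.

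The ratio of Ccr2 to Csf1r was 0.0495, 0.0763 and 0.112 in WT and 0.135, 0.161 and 0.243 in KO (lowest, median and highest of the FPKM ratio). All KO hearts lay above all WT hearts. The groups were also apart for the ratio of Ccr2 to Adgre1 (0.103 to 0.270 in WT, 0.359 to 0.888 in KO) and of Ccr2 to Folr2 (0.0568 to 0.193 in WT, 0.367 to 0.849 in KO). Against the resident genes Lyve1, Mrc1 and Cd163, the ratio of Ccr2 overlapped between the groups, to unlike degrees. For Lyve1 it was 0.109 to 0.2502 in WT and 0.122 to 0.293 in KO, with 1 KO heart above every WT heart. For Mrc1 it was 0.060 to 0.159 in WT and 0.105 to 0.187 in KO, with 2 KO hearts above. For Cd163 it was 0.0379 to 0.108 in WT and 0.0908 to 0.264 in KO, with 5 KO hearts above. Whether the recruited gene gained on the resident ones thus differed with the resident gene that was taken. Within the shared genes, Adgre1 per Csf1r was 0.410 to 0.489 in WT and 0.273 to 0.401 in KO, with no overlap.

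**Figure D2:**
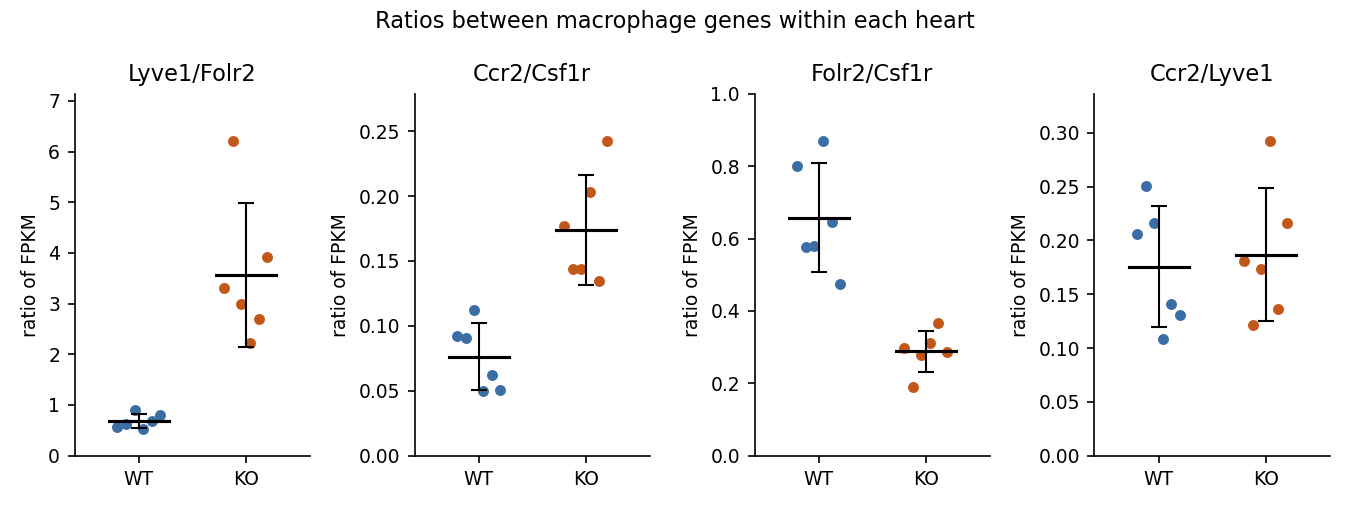
Ratio of the deposited FPKM values of 2 genes in the same heart, on linear axes from 0; each point is 1 heart, the bar is the mean and the whiskers are 1 SD (n = 6 WT and 6 KO). Lyve1 per Folr2 and Ccr2 per Csf1r are higher in every KO heart, Folr2 per Csf1r is lower in every KO heart, and Ccr2 per Lyve1 overlaps.

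As a single value, the mean log2 CPM of the 5 resident genes minus that of Ccr2 was 1.82 ± 0.62 in WT (1.06 to 2.63) and 0.40 ± 0.35 in KO (-0.037 to 0.91). No KO heart reached the WT range, and no test was made on this score. The difference of -1.42 was not shared evenly. Taken gene by gene, the KO mean minus the WT mean of the log2 level over Ccr2 was -0.082 for Lyve1, -0.53 for Mrc1 and -1.06 for Cd163, all with overlapping groups, and -2.39 for Folr2 and -3.06 for Timd4, without overlap. Timd4 had 2, 0 and 3 counts in KO replicates 2, 3 and 6. Its value, and with it the score, therefore depends on the prior count of 2 added before the log. With the CPM of the resident genes summed before the ratio was taken, so that the abundant Cd163 and Mrc1 weigh most, the difference was -0.78 and the groups overlapped.

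General macrophage genes were then used as the yardstick. Of 15 pan-macrophage genes tested, 2 rose, 1 fell and 12 did not pass the test, with a median log2 fold change of 0.13. Over all rows 51.1% were called. Mertk, a receptor for the uptake of dying cells, rose from 18.3 ± 1.38 to 28.2 ± 4.55 CPM (adjusted p = 3.23e-05, edgeR's quasi-likelihood test), and the protease Ctss from 31.1 ± 6.73 to 42.1 ± 10.3 (adjusted p = 0.0425, edgeR), a call that was lost under 9 alternatives. The complement genes C1qa, C1qb and C1qc had log2 fold changes of 0.17, 0.13 and 0.13, and Cd68 of -0.003, none past the test. Itgam had no count in any library, while an unnamed row that overlaps it had up to 140 counts. The summed level of the list was 259.6 to 380.2 CPM in WT and 287.4 to 496.2 in KO.

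When each library was scaled to the geometric mean of these 15 genes in place of all genes, 32.2% of all rows were called (12.2% higher and 19.9% lower) and 6 of 9 members. This scaling moved the median of all rows to -0.094. Folr2 (log2 fold change -1.53, SE 0.20), Timd4 (-2.26, SE 0.44) and Adgre1 (-0.77, SE 0.16) lay lower in all 6 KO hearts than in any WT heart on this scale, each with p = 0.00217 in an exact two-sided permutation test. That is the smallest p that the 924 splits of the hearts can give. Lyve1 (0.79, SE 0.16) and Ccr2 (0.80, SE 0.20) were higher, each in 5 KO hearts above every WT heart and with p = 0.00433 in the exact permutation test. Csf1r was lower (-0.37, SE 0.15, adjusted p = 0.0487 in edgeR's fit, exact permutation p = 0.00649), with 5 KO hearts below every WT heart. Its call in edgeR's fit was lost in 9 of the 12 fits with a library left out, all but those without WT replicate 4, KO replicate 4 or KO replicate 5, and also with limma-voom. Mrc1 (0.33, SE 0.15) missed the threshold in edgeR's fit (adjusted p = 0.0851) and had p = 0.0152 in the exact permutation test. Cd163 (-0.19, exact permutation p = 0.359) and Cx3cr1 (0.13, exact permutation p = 0.433) passed neither, and the sign of Cx3cr1 turned when only C1qa, C1qb, C1qc, Fcgr1 and Mertk served as the scale. The exact p-values are for 9 tests, are not adjusted, and were added after the fit had been seen to put no limit on its prior degrees of freedom.

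**Figure D3:**
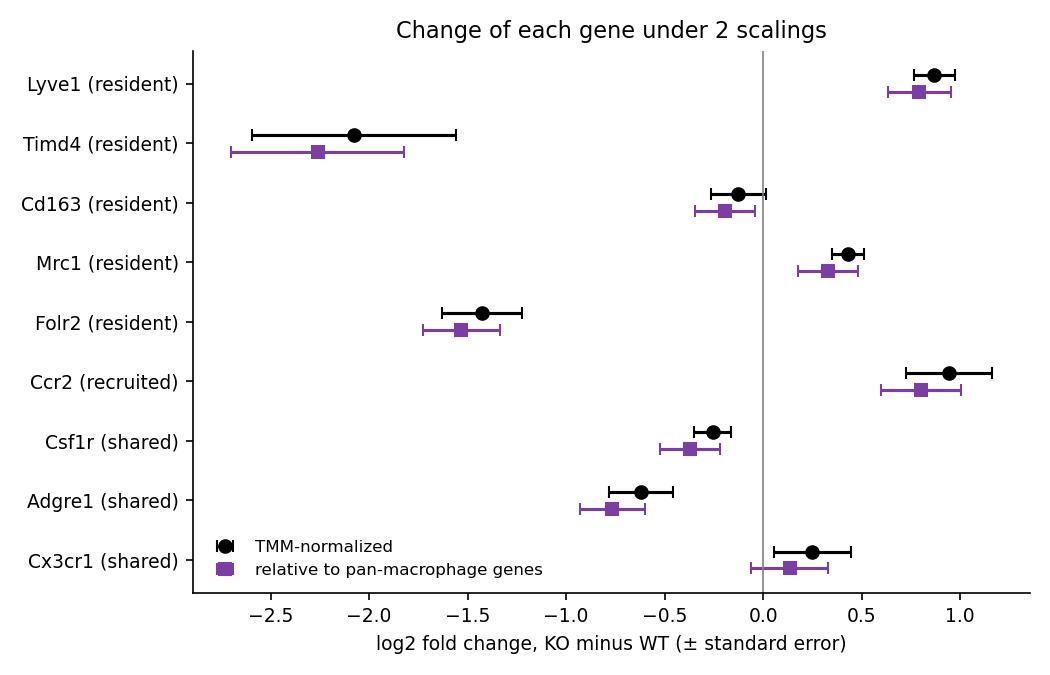
Log2 fold change (KO minus WT) of each member on a linear axis, with libraries scaled by TMM (black circles) or to 15 pan-macrophage genes (purple squares); whiskers are the standard error of edgeR's fit (n = 6 WT and 6 KO). Under both scalings Lyve1, Mrc1, Ccr2 and Cx3cr1 lie above 0 and the other 5 below, with Cd163 and Cx3cr1 nearest to it.

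The members were set beside further genes of the same cells. For the counts of this and the following lists, the share over all rows is 25.6% higher and 25.5% lower. Of 11 genes of the resident programme tested, 6 fell, 1 rose and 4 did not pass the test (median log2 fold change -0.31). Retnla, which encodes a secreted protein of alternatively activated macrophages, stood at 2.47 to 6.34 CPM in WT and at 0 to 0.150 CPM in KO (adjusted p = 2.12e-08, edgeR). The lectin Clec10a fell from 5.30 ± 0.906 to 1.95 ± 0.273 CPM (log2 fold change -1.44, adjusted p = 6.51e-07, edgeR) and the chemokine Ccl24 from 1.71 ± 0.667 to 0.391 ± 0.132 (-2.12, adjusted p = 4.16e-05, edgeR). For all of these, KO lay below WT without overlap. Retnla passed the filter on low counts through its WT libraries, so its call and the gap between its groups are not free of that selection. Fcna, Cbr2 and F13a1 fell as well, by 1.32, 0.37 and 0.31 on the log2 scale. The count of genes that fell was 3 without WT replicate 4, WT replicate 6 or KO replicate 2. The gene that rose was Stab1, a scavenger receptor that endothelial cells also carry, from 87.7 ± 10.1 to 122.3 ± 14.8 CPM (0.48, adjusted p = 0.000249, edgeR), although its row overlaps Nt5dc2 with up to 448 counts. Siglec1, Maf, Vsig4 and Pf4 lay between -0.02 and 0.43 on the log2 scale and were not called.

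Of 10 tested genes of the monocyte programme, 5 rose, none fell and 5 did not pass the test (median log2 fold change 1.00). With a minimum of 1 CPM in 6 libraries, which removes faint genes from the test, 2 rose. Ace, the angiotensin-converting enzyme of patrolling monocytes and of endothelium, rose from 75.3 ± 9.38 to 290.4 ± 31.9 CPM (1.95, adjusted p = 8.30e-11, edgeR). Hp, haptoglobin, rose from 0.435 ± 0.283 to 1.61 ± 0.780 CPM (1.86, adjusted p = 0.00137, edgeR) and the protease Napsa from 0.316 ± 0.185 to 1.09 ± 0.461 (1.78, adjusted p = 0.00143, edgeR). Itgal and Chil3 rose by 0.83 and 1.57 on the log2 scale. Plac8, Ms4a4c, Ms4a6c and Cd52 had log2 fold changes of 0.38 to 1.12 and were not called. Plac8, Chil3, Hp, Ms4a4c and Napsa had WT means of at most 0.816 CPM. Plac8, Hp, Ms4a4c and Napsa passed the filter on low counts through their KO libraries, so the calls of Hp and Napsa are not free of that selection. Blood endothelium, which shares Ace, had 3 of 5 genes higher and none lower (median 0.23), with a summed level of 1136 to 1336 CPM in WT and 1212 to 1538 in KO. Its part in the change of Ace was not tested.

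Several ligands of the member receptors rose. Cx3cl1, fractalkine itself, rose from 7.83 ± 0.725 to 23.3 ± 2.79 CPM (log2 fold change 1.57, adjusted p = 7.19e-10, edgeR), while its receptor Cx3cr1 was not called. Il34 rose from 5.16 ± 1.31 to 11.7 ± 1.80 CPM (1.19, adjusted p = 5.81e-06, edgeR) and Csf1 from 32.8 ± 3.73 to 42.5 ± 4.04 (0.38, adjusted p = 0.000633, edgeR), while their shared receptor Csf1r was lower. For these 3 ligands all KO hearts lay above all WT hearts. The row of Il34 overlaps Mtss1l, which had up to 1442 counts, so its value is uncertain. Of the ligands of Ccr2, Ccl12 rose by 1.96 on the log2 scale, whereas Ccl2 (-0.26, adjusted p = 0.468, edgeR) and Ccl7 (-0.46, adjusted p = 0.403, edgeR) were not called. Ccl8 rose by 1.38. Both Ccl12 and Ccl8 were faint, with WT means of 0.3965 and 0.5326 CPM, and their groups overlapped. They passed the filter on low counts through their KO libraries, so their calls are not free of that selection. In all, 5 of 7 ligands tested rose and none fell.

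Genes that macrophages can switch on around damaged tissue were mostly higher among those tested, although they are not confined to macrophages. Cd9 and Fabp5 stood at 46.85 and 52.56 CPM in WT, beside 6.973 CPM for the macrophage gene Cd68. The macrophage genes C1qa, C1qb and C1qc stood at 51.84, 53.25 and 46.69 CPM in WT. CPM does not account for length, so these levels do not show which cells held the RNA. Which cells gave the changes was not tested. Of 8 tested, 5 rose, 1 fell and 2 did not pass the test (median log2 fold change 0.60). Gpnmb, a glycoprotein of lipid-laden macrophages, rose from 2.42 ± 0.801 to 10.4 ± 3.17 CPM (2.10, adjusted p = 2.44e-06, edgeR). The lectin Lgals3 rose from 5.13 ± 1.16 to 11.7 ± 3.42 CPM (1.19, adjusted p = 0.000118, edgeR) and the lipid receptor Trem2 from 2.56 ± 0.779 to 4.73 ± 0.835 (0.88, adjusted p = 0.000895, edgeR). Spp1 and Cd9 rose by 2.40 and 0.32 on the log2 scale, Spp1 from a faint WT mean of 0.3398 CPM. Spp1 passed the filter on low counts through its KO libraries, so its call is not free of that selection. Nos2, the inducible nitric oxide synthase, fell from 11.6 ± 2.37 to 4.71 ± 0.904 CPM (-1.31, adjusted p = 1.69e-06, edgeR). Il1b (-0.90) and Fabp5 (0.01) were not called, and Arg1, Tnf, Il6 and Il10 were too low to be tested.

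Markers of other cells that share these genes or could bring them along were counted in the same way. Dendritic cells, which can carry Ccr2 and Csf1r, had 2 of 4 genes higher, Xcr1 (0.158 ± 0.106 to 1.22 ± 0.369 CPM) and Flt3 (0.333 ± 0.170 to 1.151 ± 0.526), with Clec9a and Zbtb46 not called. Xcr1 and Flt3 passed the filter on low counts through their KO libraries, so their calls are not free of that selection. Cd209a was too low to be tested. Neutrophils had 1 of 5 higher (Cxcr2), T and NK cells 1 of 5 (Cd8a) and B cells 0 of 3, where 25.6% of all rows were higher. Of the mast cell genes Cpa3 rose and Kit fell. The calls of Cxcr2, Cd8a, Kit and Cpa3 were lost under 8, 8, 7 and 3 alternatives. The neutrophil marker Ly6g was at 0 to 0.184 CPM. All 4 fibroblast genes rose (median 0.75; Pdgfra from 75.6 ± 7.24 to 138.3 ± 14.8 CPM, Dcn from 838.3 ± 75.8 to 1295 ± 157.3 and Tcf21 from 10.7 ± 1.07 to 16.3 ± 1.92), and of 3 pericyte genes Pdgfrb and Rgs5 rose. The erythrocyte gene Hba-a1 was not called. Of 7 cardiomyocyte genes, Tnni3, Pln and Ryr2 fell, Mybpc3 rose and 3 were not called (median -0.20). The part of these cells in the changes of the members was not tested.

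**Figure D4:**
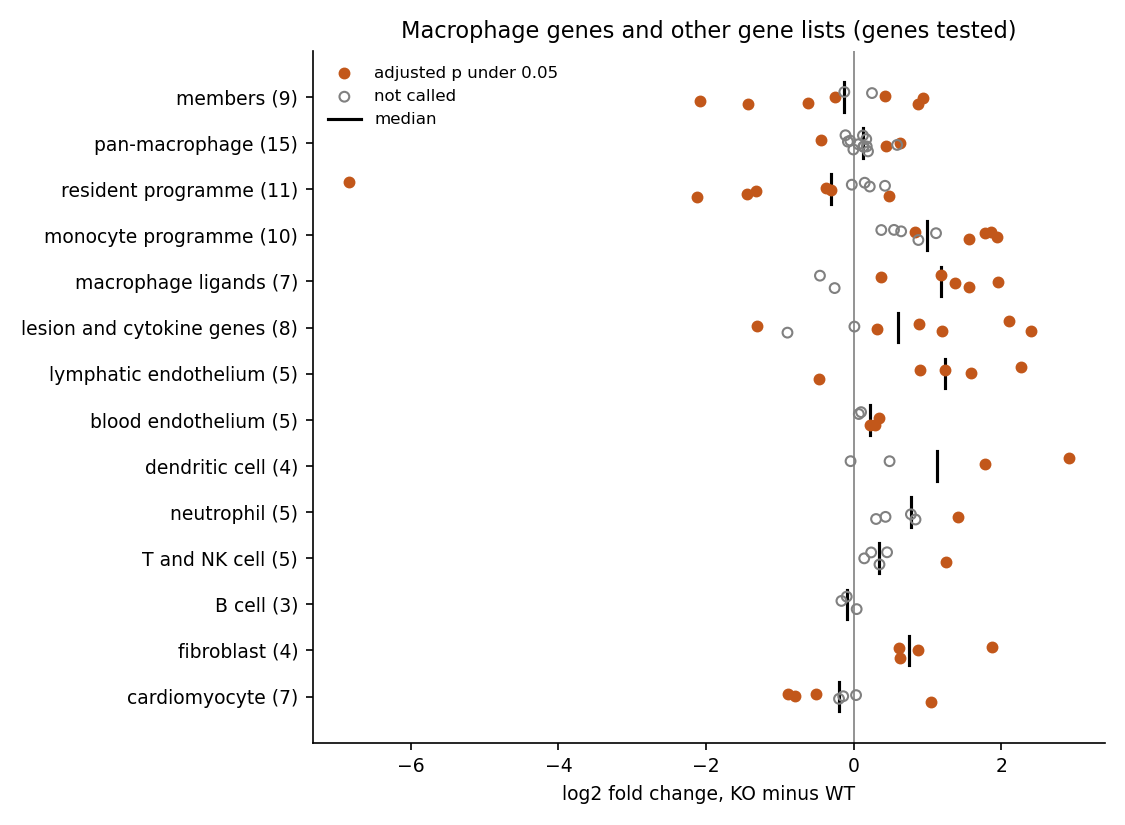
Log2 fold change (KO minus WT, edgeR with TMM) of each tested gene of the members and of 13 further lists, on a linear axis; filled points passed an adjusted p of 0.05, open points did not, and the black bar is the median of the list. The members spread from -2.08 (Timd4) to 0.94 (Ccr2) around a median of -0.13, the monocyte programme lies wholly above 0, and the point farthest to the left is Retnla, whose fitted value depends on the small count added to libraries at 0.

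Within a genotype, the members were compared by the Pearson correlation of log2 CPM over the 12 hearts after the mean of each genotype had been removed, as a description only, since the hearts share their depth and composition across genes. Csf1r and Adgre1 varied together most closely (r = 0.85), followed by Mrc1 with Csf1r (r = 0.69) and Folr2 with Csf1r (r = 0.65). Cd163 and Ccr2 varied in opposite directions (r = -0.67). The genes most like Csf1r among 11949 rows were Ticam1 (r = 0.94), Aars2 (0.94), Ddr2 (0.92), Gpr157 (0.92) and Pdxk (0.90). Those most like Cd163 were led by Dnm1l (r = 0.92) and Igf2r (0.92), followed by Nbas, Dnajc16 and Heatr5b. Those most like Ccr2 were Emc6 (r = 0.87), Fam179a (0.87), 4930452B06Rik, Rtn4r and Snd1. None of the 15 genes is a member or on any of the lists. They are the highest of 11949 correlations over 12 hearts, which can be high without any link. The next row stood at r = 0.8946 for Csf1r, 0.8626 for Cd163 and 0.8252 for Ccr2.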

How the data were processed

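Ventricular wall RNA of 6 WT and 6 KO mice was sequenced from poly-A mRNA, and each library was assigned to its genotype by the sample labels. The authors counted reads per gene with HTSeq and deposited 1 table with raw counts and with FPKM (computed by the authors from counts, gene length and library size). The submitters' processing notes name HISAT2 2.0.5 and mm10, while the identifiers are of C57BL/6NJ. Of 18720 symbols shared with GRCm38.p6, 18696 lie on the same chromosome and 2 start within 1 kb, so positions of rows are not mm10. The authors' fold changes and p-values, which the table also holds, were not used. Whether the choice of strain assembly altered counts was not tested.

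Counts were fitted with edgeR 4.0.16 under R 4.3.3 (rows passing filterByExpr, 17155; TMM; quasi-likelihood test, robust; genotype only; Benjamini-Hochberg adjustment over all rows). Values in CPM are TMM-scaled, and log2 CPM used a prior count of 2. The labels do not state how replicates arose, so the p-values measure the spread between these libraries. No 2 libraries of a genotype agreed within sampling noise (the lowest chi-square was 6.99 per degree of freedom). The second fit scaled libraries to pan-macrophage genes. Its prior degrees of freedom were infinite (6.71 in the first fit, with 10 residual), so its adjusted p-values are optimistic, and exact two-sided permutation tests were added after that was seen. The members and lists were chosen with earlier results of these data known. Named were all members, up to 3 called genes a direction and list with the smallest p, the 5 rows most like Csf1r, Cd163 and Ccr2, and, chosen after their values were seen, other list genes. Alternatives were other normalizations, DESeq2 1.42.0, limma-voom (limma 3.58.1), other filters, a replicate block and leaving out each library. The fit was tested on simulated data. A count of 0 allows up to 3 counts, at most 0.126 CPM, for counting error only. Single values of 2 list genes are not reported here.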

Additional observations from a re-analysis of the deposited data

Results flagged for a closer look

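In 6 of 100 groups of 6 hearts (the named genes in WT and in KO), 1 library stood far from the others by Dixon's criterion, where chance gives about 5. None was in a member, and 5 of them were KO libraries. Sdhaf4 was at 2.73 CPM in KO replicate 1, against 2.25 to 2.42 in the other KO hearts. In the same library Ccl24 was at 0.129 CPM, against 0.397 to 0.487. Retnla was at 0.150 CPM in KO replicate 2, against 0 to 0.0326. KO replicate 3 held Pdgfrb at 119.7 CPM, against 160.4 to 178.4, and Ryr2 at 1691 CPM, against 863 to 1039. Tnni3 was at 3332 CPM in WT replicate 6, against 3773 to 4019. Leaving out KO replicate 1, 2 or 3 ended the call of no member other than Csf1r in the TMM fit.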

How the results depend on the processing

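With TMM or another normalization, test or filter, 6 or 7 members were called, 3 higher and 3 or 4 lower. With each library left out the count was 6 to 7 (3 higher, 3 to 4 lower). The call that was lost was that of Csf1r, which library size only also ended, and a minimum of 1 CPM in 6 libraries removed Timd4 from the test. Over the left-out fits the log2 fold change ranged from 0.81 to 0.93 for Lyve1, 0.37 to 0.47 for Mrc1, -1.53 to -1.29 for Folr2, -2.41 to -1.82 for Timd4, 0.80 to 1.10 for Ccr2 and -0.75 to -0.52 for Adgre1, all called each time. Cd163 (-0.20 to -0.03) and Cx3cr1 (0.13 to 0.39) were never called.

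Relative to the pan-macrophage genes, 5 to 7 members were called over the left-out fits (2 to 3 higher, 3 to 4 lower), 5 with limma-voom and 7 with the replicate block. Csf1r lost its call there in 9 of 12 left-out fits, and Mrc1 gained one without KO replicate 4. With C1qa, C1qb, C1qc, Fcgr1 and Mertk alone as the scale, which moved the median of all rows to -0.31, the log2 fold change relative to pan-macrophage genes of Cx3cr1 turned to -0.078 (adjusted p = 0.772, edgeR) and Cd163 was called (-0.42, adjusted p = 0.0213, edgeR). The cause was not tested.

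Resident to recruited balance, -1.42 in the report, was -0.78 from summed CPM and -1.58 to -1.26 over the left-out libraries. Same-numbered WT and KO libraries did not deviate together (correlations of -0.16 to 0.02), so no pairing by number was seen. A weak pairing would not show in these correlations. With the replicate block 7 members were called, 3 higher and 4 lower, as without it. Of 1173 alternative fold changes, 1107 kept direction and call, 61 lost the call, 4 gained it and 1 reversed. Of 672 alternative list counts, 51 moved by over 1.5 times, among them monocyte programme genes called higher (as few as 2), resident programme genes called lower (as few as 3) and pan-macrophage genes called higher (1 to 4). Cd8a, Cxcr2, Ctss, Kdr, Kit and Cpa3 lost their calls under 8, 8, 9, 9, 7 and 3 alternatives. Summing Ly6c2 with Ly6c1 could not be run without their rows, and Ccr2 alone is the main balance. Timd4 rests on 0 to 44 counts a library.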
